A study of Mus musculus with 12 samples.

Results

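Genes that mark endothelial cells were followed by RNA-seq in cultures grown as bone marrow-derived macrophages (BMDM) of the mouse. The members were Pecam1, Cdh5, Emcn, Sox18, Kdr, Tie1, Egfl7, Esam and Eng. They were picked by name, with their values in these libraries already known, from the deposited table of 54532 genes. Each symbol had 1 row, and all 9 were among the 14286 genes with enough counts to be tested.

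BMDM are macrophages grown from bone marrow cells, here with macrophage colony-stimulating factor at 10 ng/ml, from mice 8 weeks old. The study crossed genotype with lipopolysaccharide (LPS), a bacterial cell wall component that activates macrophages. Total RNA was taken with TRIzol after 4 h, and each of 4 groups had 3 libraries.

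The first group was Lyz2-Cre-Hdac3f/f cells with LPS at 500 ng/ml for 4 h. The second was Lyz2-Cre-Hdac3f/f cells kept in medium for the same 4 h. The third was Hdac3f/f cells with LPS at the same dose and time. The fourth was Hdac3f/f cells in medium. They are called Lyz2-Cre LPS, untreated Lyz2-Cre, Hdac3f/f LPS and untreated Hdac3f/f. All 12 libraries carried floxed alleles of Hdac3, which encodes a histone deacetylase. The Lyz2-Cre genotypes also carried Cre recombinase under the Lyz2 (lysozyme) locus of myeloid cells, so a cell of another lineage in the culture would not be targeted by design. The labels do not say whether replicates came from separate mice, so p-values measure the spread between these libraries, which may be technical.

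Endothelial cells line blood and lymph vessels. Cdh5 (VE-cadherin), Pecam1 (CD31) and Esam hold neighbouring cells together, Kdr (VEGF receptor 2) and Tie1 are receptor tyrosine kinases, and Sox18 is a transcription factor of vessel development. Several of these genes are not confined to endothelium. Pecam1 is also made by monocytes, macrophages and platelets, Esam by megakaryocytes and some blood progenitors, and endoglin (Eng) by activated monocytes and macrophages.

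Library totals lay between 16553432 and 18706990 counts. Macrophage markers were abundant throughout. The summed level of 10 such genes was 13400 to 13600 CPM (counts scaled to library size and composition) in Lyz2-Cre LPS, 6590 to 7130 in untreated Lyz2-Cre, 13000 to 14300 in Hdac3f/f LPS and 6140 to 6900 in untreated Hdac3f/f libraries. Hdac3 itself had 34.4 to 38.9 CPM in Lyz2-Cre LPS, 33.1 to 36.6 in untreated Lyz2-Cre, 38.7 to 40.7 in Hdac3f/f LPS and 36.3 to 39.7 in untreated Hdac3f/f libraries. Between genotypes its log2 fold change was -0.14 ± 0.09 (SE) in untreated cells, at an adjusted p of 0.352. In LPS-treated cells it was -0.09 ± 0.09, at an adjusted p of 0.473 (both from the edgeR quasi-likelihood test with Benjamini-Hochberg adjustment over all tested genes). Whole-gene counts do not separate the floxed exons, so this is no check of the deletion. Lyz2 was at 31.0 CPM in untreated Lyz2-Cre replicate 1, against 5180 and 5640 CPM in replicates 2 and 3 of that group. The remaining 9 libraries had 6090 CPM or more. The library labelled untreated Lyz2-Cre replicate 1 thus stood apart from its group at the locus that carries Cre.

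The members spanned a wide range of levels. By the authors' deposited FPKM, a length-corrected unit that allows genes to be compared, Eng had a median of 41.5 over the 12 libraries, and its lowest library, at 22.6, was above the highest library of any other member. Kdr followed with a median of 5.86 FPKM, then Pecam1 with 3.06, Cdh5 with 1.84 and Esam with 1.04. Sox18 (0.923), Tie1 (0.738), Egfl7 (0.509) and Emcn (0.379) had median FPKM below 1.04. From Kdr down, neighbouring genes in this order overlapped in their ranges over libraries.

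Promoter sequences are shown for 4 members: Emcn and Tie1, whose values varied widely within both untreated groups, and Kdr and Eng, whose levels went with the groups, as described further on. Egfl7 also varied widely within both untreated groups, but its 3 windows are not shown. RefSeq promoter windows on GRCm38.p6, running from 250 bases before to 50 bases after a start site, matched 5 of the 9 members. They were Emcn, Kdr, Tie1, Eng and Egfl7, the last with 3 start sites. Pecam1, Cdh5, Sox18 and Esam had no entry. Capitals mark matches, on either strand, to AGGAAG or CCGGAA (cores bound by ETS factors), AACAAT (bound by SOX factors), AGATAA (bound by GATA factors) or TATAAA (the TATA box). No match overlapped another in the 4 windows.
Emcn: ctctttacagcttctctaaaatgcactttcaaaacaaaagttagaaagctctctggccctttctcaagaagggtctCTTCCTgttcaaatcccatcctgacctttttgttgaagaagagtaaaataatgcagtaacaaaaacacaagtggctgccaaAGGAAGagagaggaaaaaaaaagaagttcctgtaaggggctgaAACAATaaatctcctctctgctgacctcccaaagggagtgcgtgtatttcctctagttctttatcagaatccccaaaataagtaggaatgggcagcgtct
Tie1: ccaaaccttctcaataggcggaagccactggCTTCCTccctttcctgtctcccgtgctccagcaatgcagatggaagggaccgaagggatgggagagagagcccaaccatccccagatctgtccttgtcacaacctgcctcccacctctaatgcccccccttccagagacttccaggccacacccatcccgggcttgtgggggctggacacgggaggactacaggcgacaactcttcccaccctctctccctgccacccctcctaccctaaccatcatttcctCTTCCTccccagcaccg
Kdr: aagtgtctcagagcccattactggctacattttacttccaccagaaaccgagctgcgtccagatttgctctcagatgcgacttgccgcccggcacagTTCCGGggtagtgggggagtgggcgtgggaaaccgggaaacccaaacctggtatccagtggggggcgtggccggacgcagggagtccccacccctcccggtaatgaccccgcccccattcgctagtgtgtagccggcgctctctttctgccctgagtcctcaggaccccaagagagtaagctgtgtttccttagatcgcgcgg
Eng: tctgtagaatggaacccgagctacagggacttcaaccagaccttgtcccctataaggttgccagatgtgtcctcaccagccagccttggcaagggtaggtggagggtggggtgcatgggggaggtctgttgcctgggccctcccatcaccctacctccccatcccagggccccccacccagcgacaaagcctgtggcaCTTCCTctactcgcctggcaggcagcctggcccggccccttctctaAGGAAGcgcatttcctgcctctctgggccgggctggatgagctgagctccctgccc

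The Emcn window is chr3:137340828-137341127 on the plus strand, Tie1 is chr4:118489800-118490099 on the minus strand, Kdr is chr5:75978406-75978705 on the minus strand and Eng is chr2:32646345-32646644 on the plus strand. Each is printed 5′ to 3′ along the gene's own strand. Emcn, Tie1 and Eng each held AGGAAG 2 times, in at least 1 case on the opposite strand, a motif present in 35.4% of all 32851 promoter windows of this length. Kdr held no AGGAAG but 1 CCGGAA on the opposite strand, found in 14.9% of windows. The AACAAT of Emcn occurred in 10.7% of windows. None of the 4 held AGATAA (11.2% of windows) or TATAAA (13.6%). The Emcn window was 41% G and C, against 60.3% for Tie1, 60.7% for Kdr, 63.3% for Eng and a median of 52.7% over all windows. A match describes the letters only.

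Cdh5, Emcn, Sox18, Tie1 and Egfl7 varied most among the untreated libraries, within both genotypes. Each had its 3 highest values in untreated Lyz2-Cre replicates 2 and 3 and untreated Hdac3f/f replicate 1. Each had its 3 lowest values in untreated Lyz2-Cre replicate 1 and untreated Hdac3f/f replicates 2 and 3. All 6 LPS libraries lay between. These 3 highest libraries were shared by 3.44% of all tested genes, and the members had been chosen with their values in view. In a bulk library, fewer cells of a type and less RNA per cell cannot be told apart.

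**Figure D1:**
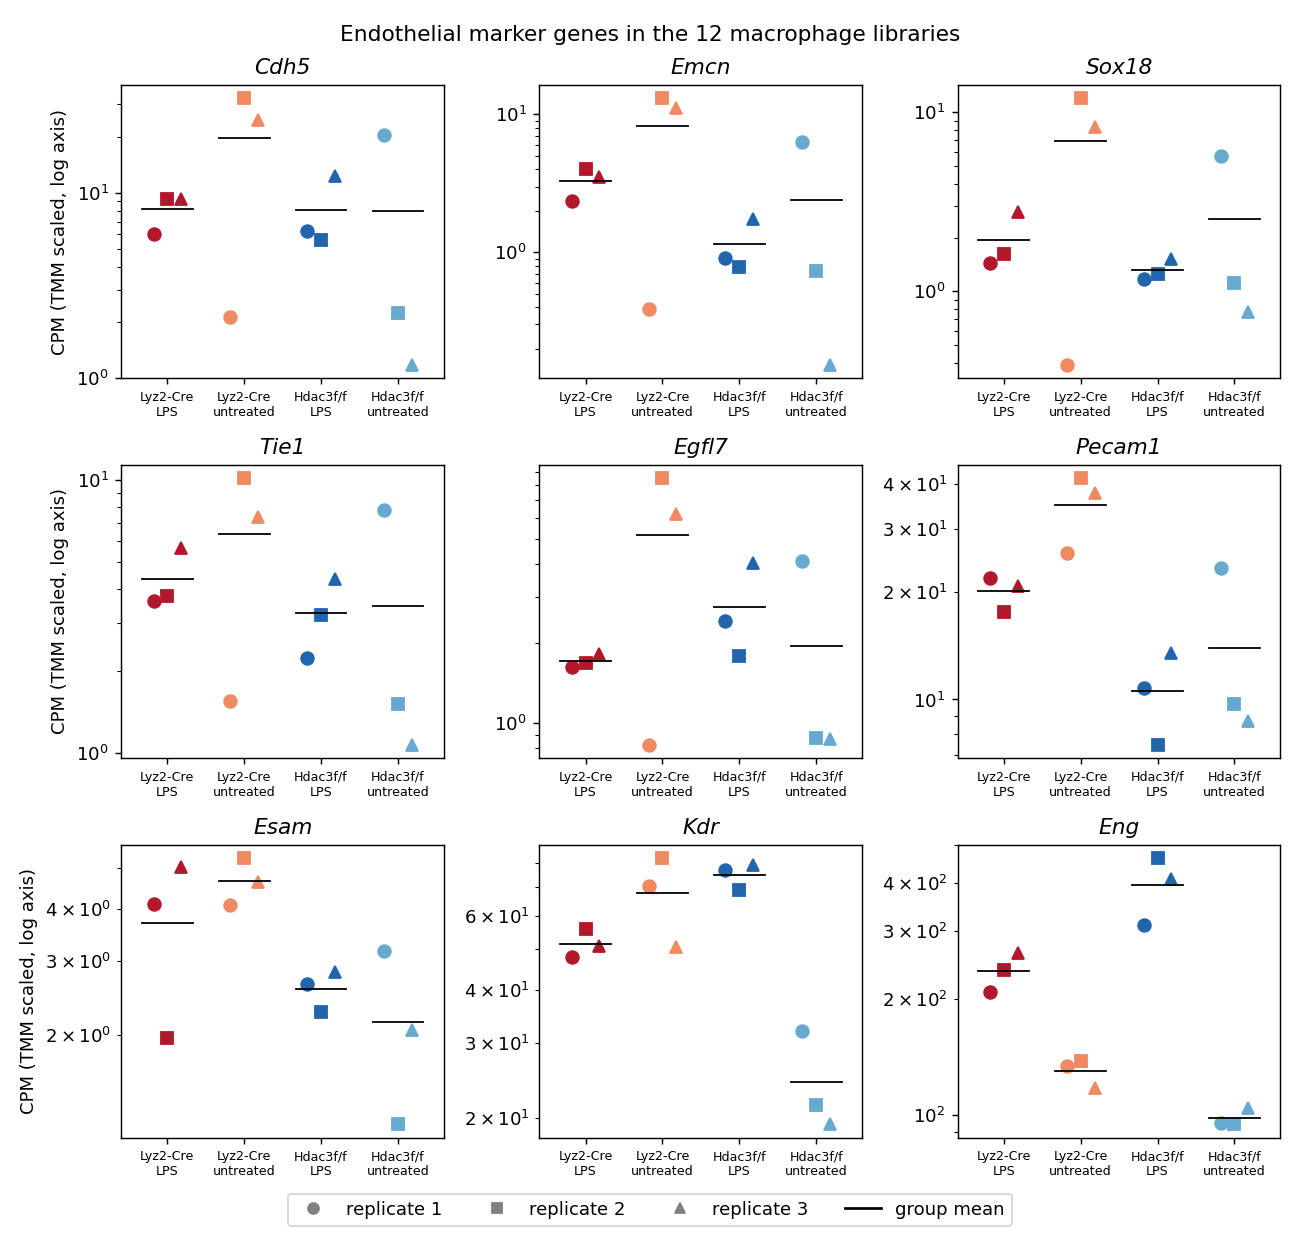
CPM of each endothelial marker gene (log axes, a separate scale for each gene) in the 4 groups of 3 libraries, with symbols for replicate number and a line at the group mean. For Cdh5, untreated Lyz2-Cre replicate 1, at 2.14 CPM, lies below both other libraries of its group, and untreated Hdac3f/f replicate 1, at 20.4 CPM, lies above both others of its group, while the libraries of Kdr and Eng stay within 1.66-fold of each other in every group.

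Cdh5 (ENSMUSG00000031871; chromosome 8, 104101625 to 104144511, plus strand, mm10) encodes the cadherin of endothelial junctions. It had 5.98, 9.30 and 9.28 CPM in Lyz2-Cre LPS replicates 1, 2 and 3, and 2.14, 32.4 and 24.8 CPM in untreated Lyz2-Cre replicates. It had 6.25, 5.53 and 12.4 CPM in Hdac3f/f LPS replicates, and 20.4, 2.24 and 1.18 CPM in untreated Hdac3f/f replicates. The highest library of the untreated Lyz2-Cre group was 15.2 times its lowest, and that of the untreated Hdac3f/f group 17.3 times its lowest. Within the LPS groups these ratios were 1.56 for Lyz2-Cre and 2.24 for Hdac3f/f, and the groups overlapped in all 4 comparisons.

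Emcn (ENSMUSG00000054690; chromosome 3, 137341067 to 137432185, plus strand) encodes endomucin, a sialomucin of capillary and venous endothelium. It had 2.35, 3.99 and 3.51 CPM in Lyz2-Cre LPS and 0.389, 13.1 and 11.1 CPM in untreated Lyz2-Cre replicates. Hdac3f/f LPS replicates had 0.903, 0.780 and 1.74 CPM, and untreated Hdac3f/f replicates had 6.33, 0.730 and 0.153 CPM. It spanned the widest range of the 9 members, 85.2 times between its highest and lowest library. The lowest value rests on 3 counts, with an exact Poisson 95% interval of 0.0316 to 0.448 CPM, which covers counting error only. With LPS, all 3 Lyz2-Cre libraries lay above all 3 Hdac3f/f libraries.

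Sox18 (ENSMUSG00000046470; chromosome 2, 181669836 to 181671640, minus strand) had 1.45, 1.62 and 2.76 CPM in Lyz2-Cre LPS and 0.389, 12 and 8.31 CPM in untreated Lyz2-Cre replicates. It had 1.18, 1.25 and 1.52 CPM in Hdac3f/f LPS and 5.68, 1.12 and 0.767 CPM in untreated Hdac3f/f replicates. Its spread within the untreated Lyz2-Cre group was 30.8-fold, against 1.90-fold within Lyz2-Cre LPS.

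Tie1 (ENSMUSG00000033191; chromosome 4, 118471191 to 118490061, minus strand) encodes an orphan receptor that modulates the angiopoietin receptor Tek. It had 3.62, 3.76 and 5.64 CPM in Lyz2-Cre LPS and 1.55, 10.2 and 7.36 CPM in untreated Lyz2-Cre replicates. It had 2.22, 3.20 and 4.35 CPM in Hdac3f/f LPS and 7.76, 1.51 and 1.07 CPM in untreated Hdac3f/f replicates. In none of the 4 comparisons were the groups separated for Tie1.

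Egfl7 (ENSMUSG00000026921; chromosome 2, 26580014 to 26593120, plus strand) encodes a protein secreted by endothelial cells into the matrix around vessels. It had 1.63, 1.68 and 1.82 CPM in Lyz2-Cre LPS and 0.826, 8.50 and 6.22 CPM in untreated Lyz2-Cre replicates. Hdac3f/f LPS replicates had 2.43, 1.79 and 4.06 CPM, and untreated Hdac3f/f replicates had 4.12, 0.876 and 0.869 CPM. Egfl7 overlaps Agpat2 on the opposite strand, which had 9032 counts over all libraries against 662 for Egfl7. The strand setting of the counting is not given in the sources used here, so reads where they overlap could belong to either. Mir126a and Mir126b, annotated inside Egfl7, had 0 counts in every library.

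**Figure D2:**
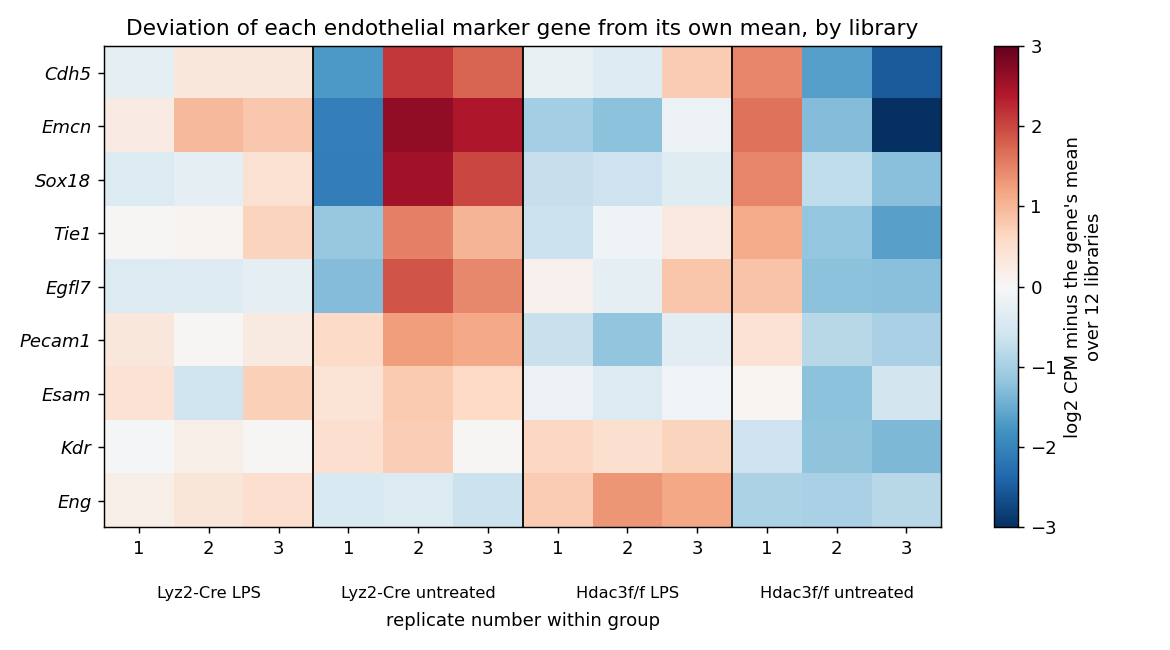
Deviation of each marker gene's log2 CPM (prior count 2) from its own mean over the 12 libraries, with groups side by side and replicates 1 to 3 within each. The top 5 rows are red in untreated Lyz2-Cre replicates 2 and 3 and untreated Hdac3f/f replicate 1 and blue in the other untreated libraries, and the Eng row is red in LPS libraries.

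Pecam1 and Esam took part in this pattern to a lesser degree. Pecam1 (ENSMUSG00000020717; chromosome 11, 106654217 to 106750628, minus strand) had 21.8, 17.6 and 20.8 CPM in Lyz2-Cre LPS and 25.6, 41.6 and 37.8 CPM in untreated Lyz2-Cre replicates. It had 10.8, 7.48 and 13.5 CPM in Hdac3f/f LPS and 23.3, 9.69 and 8.69 CPM in untreated Hdac3f/f replicates. Untreated Hdac3f/f replicate 1 was again the highest of its group. Even so, every Lyz2-Cre library lay above every Hdac3f/f library of the same treatment, and the LPS libraries of Lyz2-Cre cells lay below their untreated ones.

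Esam (ENSMUSG00000001946; chromosome 9, 37528078 to 37538319, plus strand) encodes an adhesion molecule of endothelial tight junctions and platelets. It had 4.10, 1.96 and 5.02 CPM in Lyz2-Cre LPS and 4.08, 5.29 and 4.63 CPM in untreated Lyz2-Cre replicates. It had 2.64, 2.26 and 2.83 CPM in Hdac3f/f LPS and 3.17, 1.22 and 2.05 CPM in untreated Hdac3f/f replicates. Without LPS the genotypes did not overlap, Lyz2-Cre being higher. Lyz2-Cre LPS replicate 2 was below the other 2 libraries of its group by more than 2-fold, and it was also the lowest of its group for the summed megakaryocyte and platelet markers, at 741 CPM against 929 and 954 CPM in replicates 1 and 3. In the untreated Lyz2-Cre group the order was different, with these markers at 1190, 591 and 482 CPM in replicates 1, 2 and 3, of which replicate 1 had the lowest Esam. The part of such cells in the Esam values was not tested.

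Kdr and Eng went with the groups. Kdr (ENSMUSG00000062960; chromosome 5, 75932827 to 75978458, minus strand), the main signalling receptor for VEGF-A, had 47.8, 55.9 and 50.9 CPM in Lyz2-Cre LPS and 70.4, 82.1 and 50.5 CPM in untreated Lyz2-Cre replicates. It had 76.8, 68.9 and 78.9 CPM in Hdac3f/f LPS and 32.1, 21.4 and 19.3 CPM in untreated Hdac3f/f replicates. The untreated Hdac3f/f libraries were thus the 3 lowest. In Hdac3f/f cells LPS libraries were all above untreated ones, while in Lyz2-Cre cells the LPS and untreated libraries overlapped.

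Eng (ENSMUSG00000026814; chromosome 2, 32646595 to 32682669, plus strand), a co-receptor for BMP9, BMP10 and TGF-beta, was the most abundant member. It had 208, 238 and 262 CPM in Lyz2-Cre LPS and 134, 138 and 117 CPM in untreated Lyz2-Cre replicates. It had 311, 464 and 410 CPM in Hdac3f/f LPS and 94.9, 94.3 and 104 CPM in untreated Hdac3f/f replicates. No pair of the 4 groups overlapped, in the order Hdac3f/f LPS, Lyz2-Cre LPS, untreated Lyz2-Cre and untreated Hdac3f/f. Eng overlaps Fpgs on the opposite strand, which had 1258 counts in all against 42210 for Eng.

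The errors of the fold changes rest on 1 estimate of spread per gene, shared by all 12 libraries. Standard errors of the comparison with LPS therefore also carry the spread of the untreated libraries. Sox18, for instance, spread only 1.90-fold within Lyz2-Cre LPS and 1.29-fold within Hdac3f/f LPS, yet has a standard error of 0.98 there. The members were chosen on these values, so their fold changes (log2, edgeR fit across all tested genes) are given as a description, with no p. Without LPS, Lyz2-Cre over Hdac3f/f was 1.30 ± 0.90 (SE) for Cdh5, 1.74 ± 0.99 for Emcn, 1.43 ± 0.84 for Sox18, 0.87 ± 0.68 for Tie1 and 1.39 ± 0.69 for Egfl7. It was 1.33 ± 0.33 for Pecam1, 1.11 ± 0.35 for Esam, 1.48 ± 0.20 for Kdr and 0.41 ± 0.14 for Eng. The standard errors of the first 5 genes were thus at least 0.68, while those of the other 4 were at most 0.35. Pecam1, Esam, Kdr and Eng were also the 4 members whose genotypes did not overlap without LPS, all higher in Lyz2-Cre (20.0% of all tested genes were so separated). Of the 9 members, 2 passed an adjusted p of 0.05 upwards, where 5.12% of all tested genes did. Such counts of members called, here and below, are a description and no support, since the members were chosen on these values. The members' median was 1.33, against 0.03 over all tested genes.

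With LPS, Lyz2-Cre over Hdac3f/f was 0.92 ± 0.34 for Pecam1 and 1.52 ± 1.15 for Emcn, the members whose Lyz2-Cre libraries all lay higher (20.5% of tested genes). It was -0.54 ± 0.19 for Kdr and -0.74 ± 0.14 for Eng, the members whose Lyz2-Cre libraries all lay lower (22.7% of tested genes). Cdh5 was at 0.02 ± 0.94, Tie1 at 0.41 ± 0.72, Sox18 at 0.55 ± 0.98, Esam at 0.51 ± 0.36 and Egfl7 at -0.69 ± 0.75. The sign of the Cdh5 value is not fixed by the data, since DESeq2 size factors gave -0.03. Kdr and Eng thus had opposite signs with and without LPS. Downwards, 2 of 9 members passed the threshold, where 16.9% of tested genes did.

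In Lyz2-Cre cells, LPS over untreated was 0.86 ± 0.14 for Eng, the 1 member called higher (25.2% of tested genes) and the 1 whose LPS libraries all lay above untreated ones (30.9% of tested genes). The other 8 had negative values, the largest in size being -1.83 ± 0.87 for Sox18 and -1.60 ± 0.72 for Egfl7. Cdh5 was at -1.27 ± 0.91, Emcn at -1.32 ± 0.98, Pecam1 at -0.80 ± 0.33, Tie1 at -0.56 ± 0.68, Kdr at -0.39 ± 0.19 and Esam at -0.34 ± 0.34. Pecam1 was the 1 member whose LPS libraries all lay below untreated ones (34.9% of tested genes).

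In Hdac3f/f cells, LPS over untreated was 2.02 ± 0.14 for Eng and 1.62 ± 0.20 for Kdr, the 2 members called higher (28.0% of tested genes). Both also had LPS libraries wholly above untreated ones (28.3% of tested genes). Emcn was at -1.10 ± 1.15, Sox18 at -0.95 ± 0.95, Pecam1 at -0.39 ± 0.34, Tie1 at -0.10 ± 0.71, Cdh5 at 0.01 ± 0.93, Esam at 0.26 ± 0.37 and Egfl7 at 0.48 ± 0.72. Of these, Cdh5, Egfl7 and Esam turned negative when only library totals were used for scaling, at -0.69, -0.19 and -0.39, a setting that moved the median of all tested genes to -0.72.

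The LPS response of Lyz2-Cre cells minus that of Hdac3f/f cells was -2.02 ± 0.28 for Kdr and -1.16 ± 0.20 for Eng on the log2 scale, the 2 members called lower (5.54% of tested genes). These values and the 4 comparisons share libraries and are not separate lines of evidence. Egfl7 was at -2.08 ± 1.02, Cdh5 at -1.28 ± 1.30, Sox18 at -0.88 ± 1.29, Esam at -0.60 ± 0.51, Tie1 at -0.46 ± 0.98, Pecam1 at -0.41 ± 0.47 and Emcn at -0.22 ± 1.54.

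**Figure D3:**
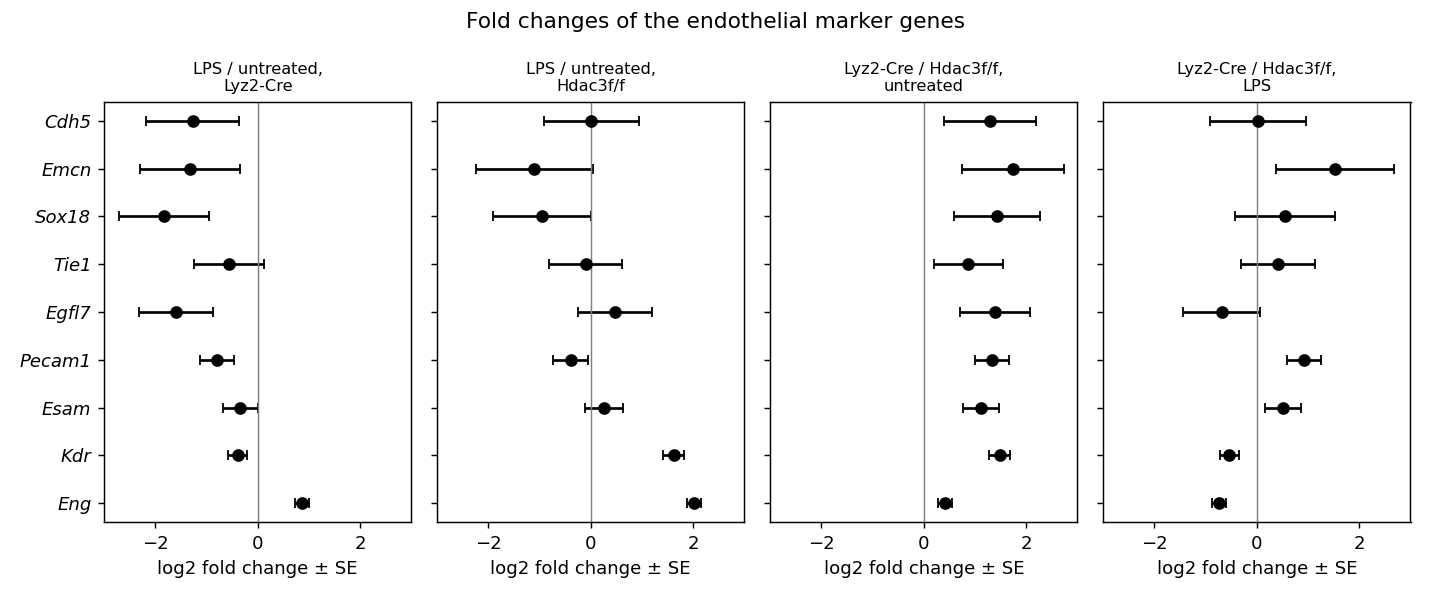
Log2 fold change (points) with its standard error (bars) of each marker gene in the 4 comparisons named above each panel. The bars of Cdh5, Emcn, Sox18, Tie1 and Egfl7 are at least 0.68 wide on each side in every panel, and Eng and Kdr have the narrowest. Each gene's bars use 1 estimate of spread from all 12 libraries, so they do not show the scatter of the compared groups alone.

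A single library moved several of these values. Without untreated Hdac3f/f replicate 1, the genotype difference without LPS was 3.52 for Cdh5 and 4.17 for Emcn, and the members' median was 2.29. Without the same library, the LPS response of Hdac3f/f cells was 2.23 for Cdh5, 1.66 for Egfl7 and 0.66 for Esam. It turned positive for Emcn at 1.34, Tie1 at 1.33, Sox18 at 0.48 and Pecam1 at 0.21, and the median of the members was 1.34, against 0.01 with all libraries. The difference between the LPS responses was then -3.50 for Cdh5 and -2.66 for Emcn.

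Untreated Lyz2-Cre replicates 1 and 2 moved values in opposite directions. Without replicate 1, the genotype difference without LPS was 1.83 for Cdh5, 2.29 for Emcn, 1.98 for Sox18, 1.33 for Tie1 and 1.89 for Egfl7, and the members' median was 1.51. Without replicate 2, it was 0.75 for Cdh5, 0.77 for Sox18, 0.35 for Tie1 and 0.83 for Egfl7, and the median was 0.83. The LPS response of Lyz2-Cre cells without replicate 1 was -1.80 for Cdh5, -1.87 for Emcn, -2.38 for Sox18, -1.01 for Tie1 and -2.10 for Egfl7, with a median of -1.01. Without replicate 2 it was -0.72 for Cdh5, -0.80 for Emcn, -1.16 for Sox18, -0.04 for Tie1 and -1.04 for Egfl7, with a median of -0.66, against -0.80 with all libraries. Esam was at -0.03 in that comparison without Lyz2-Cre LPS replicate 2. The difference between the LPS responses without untreated Lyz2-Cre replicate 1 was -1.81 for Cdh5, -0.78 for Emcn, -1.43 for Sox18, -0.91 for Tie1 and -2.58 for Egfl7. Between genotypes without LPS, Eng stayed between 0.37 and 0.48 and Kdr between 1.31 and 1.73 whichever 1 of the 12 libraries was left out.

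**Figure D4:**
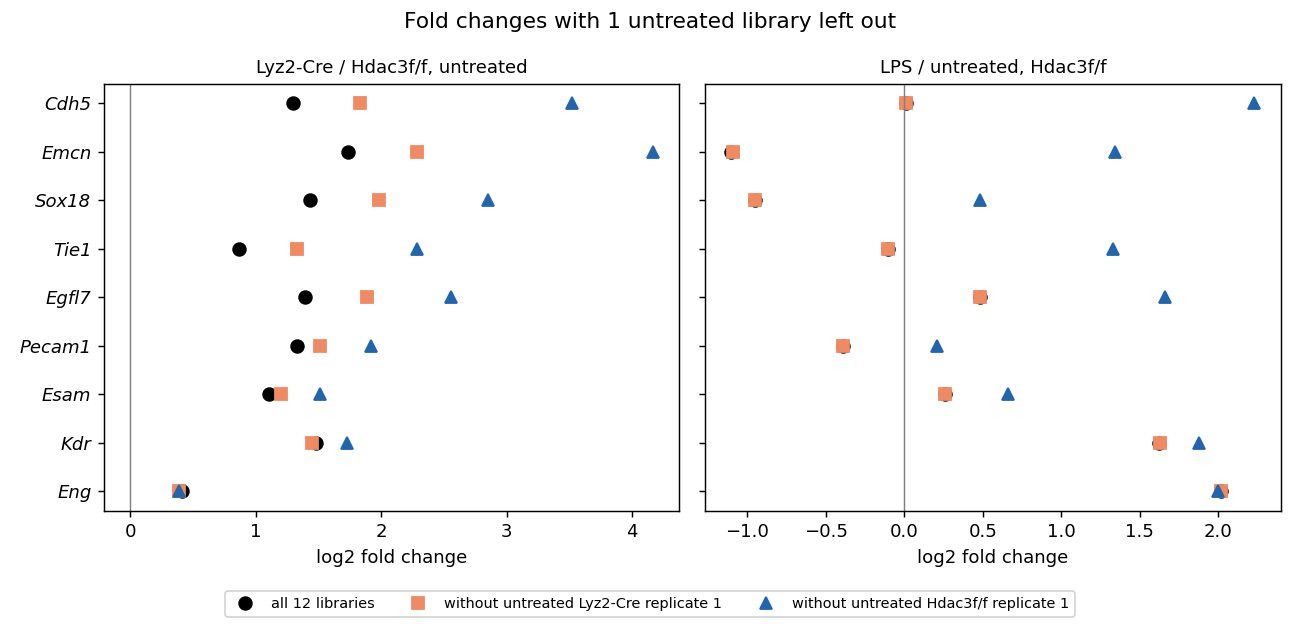
Log2 fold change of each marker gene between genotypes without LPS (left) and between LPS and untreated Hdac3f/f cells (right), with all 12 libraries and with 1 untreated library left out. Leaving out untreated Hdac3f/f replicate 1 moves Cdh5 from 1.30 to 3.52 in the left panel and from 0.01 to 2.23 in the right one, while Eng moves by less than its standard error of 0.14.

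The pattern over libraries was set beside other gene lists. A library was counted for a gene when it lay more than 2-fold above, or below, both other libraries of its group. Untreated Hdac3f/f replicate 1 was above both for 6 of the 9 members (5.38% of all tested genes), and for 20 of 28 other endothelial genes. Untreated Lyz2-Cre replicate 1 was below both for 5 of 9 members (4.15% of all tested genes), and for 20 of 28 other endothelial genes. Lyz2-Cre LPS replicate 2 was below both for 1 member, Esam (2.46% of all tested genes), and untreated Hdac3f/f replicate 3 for 1 member, Emcn (3.11%). Each of the other 8 libraries departed for 0 of 9 members in either direction, where 0.455% to 3.17% of all tested genes did. The other endothelial list held 34 genes, of which 28 passed the filter on low counts, and it was also drawn up with earlier results known. Of its genes, 14 of 28 had the same 3 highest libraries as Cdh5, against 0 of 15 stromal, 0 of 10 megakaryocyte and platelet and 0 of 10 macrophage marker genes. Among the ligands and partners described further on 2 of 21 did so, among blood progenitor genes 1 of 11, and among mast cell and lymphocyte genes 0 of 5 each. The 3 libraries were set from the members' own order, and 2 of them are Lyz2-Cre, where 9 of the 15 stromal genes were called lower without LPS. The stromal count of 0 therefore cannot show whether stromal genes shared the pattern within groups, for which the 2-fold rule is given below.

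Plvap, which encodes the diaphragm protein of fenestrated endothelium, illustrates these values at a higher level. It was chosen after its values were seen. It had 18.3, 35.4 and 30.8 CPM in Lyz2-Cre LPS and 6.51, 90.2 and 68.1 CPM in untreated Lyz2-Cre replicates. It had 11.7, 15 and 28.1 CPM in Hdac3f/f LPS and 48.0, 4.38 and 2.91 CPM in untreated Hdac3f/f replicates. Its high and low libraries were the same as for Cdh5. Not every gene of the other endothelial list did so. Vwf, of the same list, had 90.4, 37.6 and 25.0 CPM in untreated Lyz2-Cre replicates. It was the 1 gene of the 28 for which untreated Lyz2-Cre replicate 1 lay more than 2-fold above both group mates, against 20 below both. The summed megakaryocyte and platelet markers had the same order in that group, at 1190, 591 and 482 CPM in replicates 1, 2 and 3. The part of such cells in the Vwf values was not tested.

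Markers of other cell types moved with the same libraries in part. Stromal marker genes summed to 111 to 162 CPM in Lyz2-Cre LPS, 39.4 to 418 in untreated Lyz2-Cre, 1190 to 2380 in Hdac3f/f LPS and 414 to 2000 in untreated Hdac3f/f libraries. Untreated Hdac3f/f replicate 1 was more than 2-fold above both group mates for 14 of 15 tested stromal genes, and untreated Lyz2-Cre replicate 1 below both for 12 of 15. Between genotypes, 9 of the 15 stromal genes were called lower in Lyz2-Cre without LPS, where 6.66% of all tested genes were, and 12 of 15 with LPS, where 16.9% were (edgeR, adjusted over all tested genes). The part of stromal cells in the members' values was not tested.

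Megakaryocyte and platelet marker genes summed to 741 to 954 CPM in Lyz2-Cre LPS, 482 to 1190 in untreated Lyz2-Cre, 441 to 628 in Hdac3f/f LPS and 312 to 470 in untreated Hdac3f/f libraries. Untreated Lyz2-Cre replicate 1 was above both group mates for 9 of 10 of them (1.34% of all tested genes), the opposite direction from the endothelial genes, and untreated Hdac3f/f replicate 1 departed for 0 of 10. Blood progenitor genes summed to 1000 to 1220 CPM in Lyz2-Cre LPS, 1350 to 1520 in untreated Lyz2-Cre, 1180 to 1670 in Hdac3f/f LPS and 930 to 1120 in untreated Hdac3f/f libraries. Cd93 alone had 194, 204 and 171 CPM in Lyz2-Cre LPS and 689, 720 and 716 CPM in untreated Lyz2-Cre replicates. Of the 11 tested genes, 3 were called higher with LPS in Lyz2-Cre cells and 1 lower, with a median log2 fold change of 0.51 (edgeR). Of all tested genes, 25.2% were higher and 27.7% lower. Mast cell and basophil genes summed to 76.1 to 120 CPM in Lyz2-Cre LPS, 45.3 to 71.9 in untreated Lyz2-Cre, 94.9 to 133 in Hdac3f/f LPS and 28.5 to 32.6 in untreated Hdac3f/f libraries, with Mcpt4 and Tpsb2 at 0 counts in all. Most of the Hdac3f/f LPS sum was Hdc, at 67.8, 68.4 and 99.5 CPM, against 3.69, 3.50 and 4.14 CPM in untreated Hdac3f/f replicates. Between genotypes with LPS, 4 of the 5 tested genes were called higher in Lyz2-Cre and 1 lower (edgeR, adjusted over all tested genes). Of all tested genes, 15.7% were higher and 16.9% lower. Lymphocyte genes summed to 12.8 to 20.1 CPM in Lyz2-Cre LPS, 10.8 to 16.4 in untreated Lyz2-Cre, 6.11 to 8.06 in Hdac3f/f LPS and 7.25 to 10.1 in untreated Hdac3f/f libraries. Of the 10 macrophage genes, 0 departed in untreated Lyz2-Cre replicate 1 or untreated Hdac3f/f replicate 1. What these cell types contribute to Pecam1 and Esam was not tested.

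**Figure D5:**
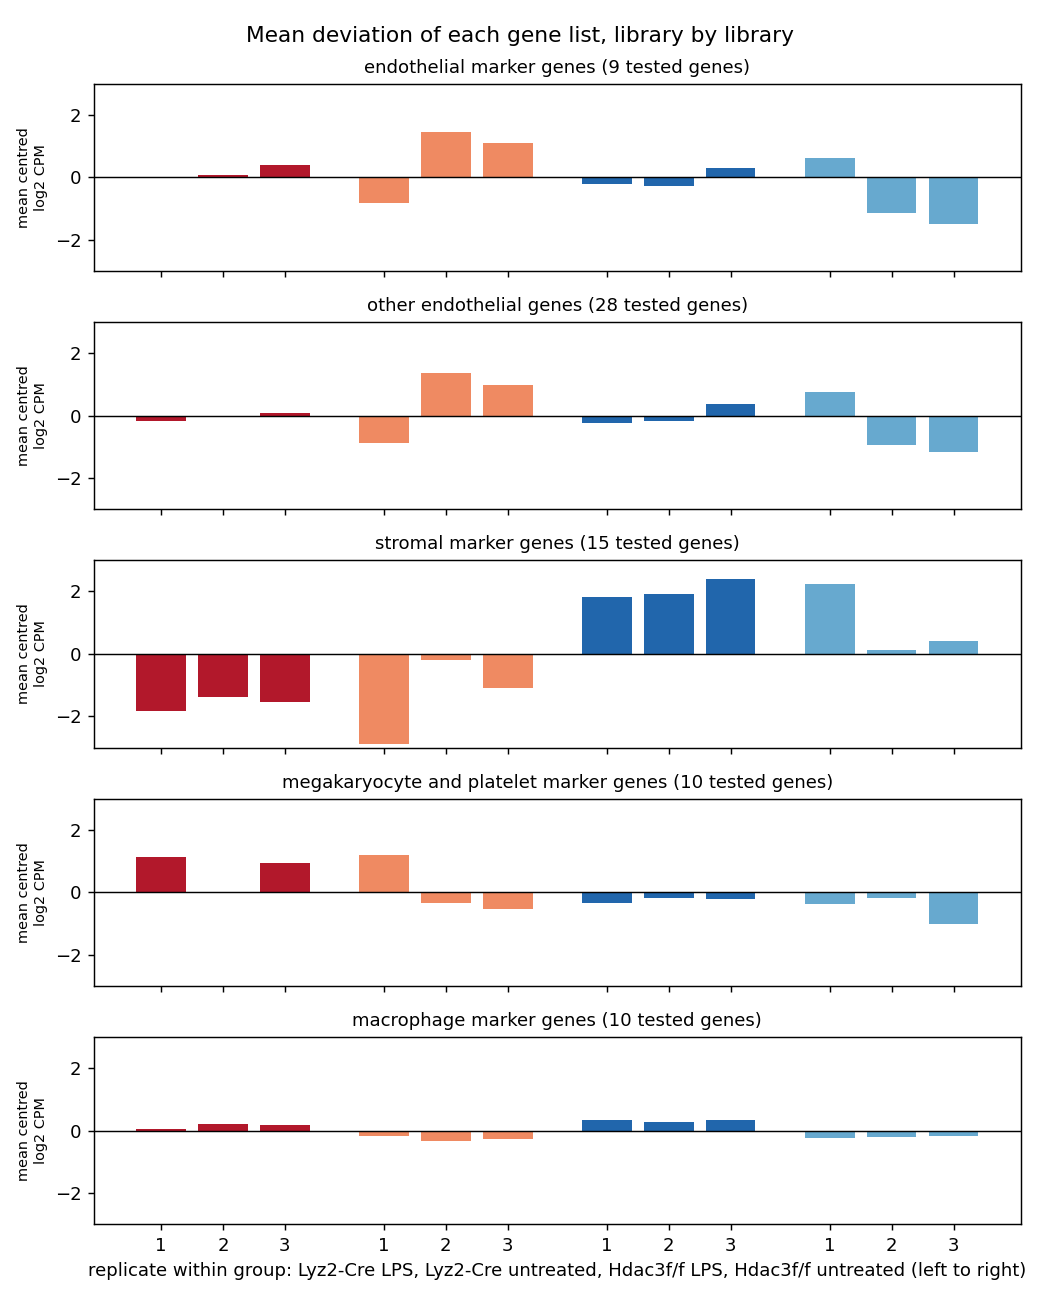
Mean deviation of log2 CPM from each gene's own mean, over the tested genes of 5 marker lists, for every library (bars coloured by group). The endothelial marker genes and the other endothelial genes are both lowest in untreated Hdac3f/f replicate 3, at -1.48 and -1.17, and highest in untreated Lyz2-Cre replicate 2, at 1.45 and 1.37, whereas macrophage genes differ little between libraries of a group.

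Likeness over the 12 libraries was measured as the root mean square difference of log2 CPM deviations from the members' mean profile. Genes with clone, predicted or pseudogene symbols (such as Gm with digits, or Rik) were left out of the ranking. Among the rest, the nearest gene outside the list was Rasip1, a regulator of vessel lumen formation, at 0.20. It was followed by Tfpi2 at 0.28, Crmp1 and Notch4 both at 0.31, Jcad at 0.33, Magi1 and Fam167b both at 0.37 and Lama5 at 0.45. The median over all tested genes outside the list was 0.98. Notch4 is a Notch receptor of endothelium and Jcad encodes an endothelial junction protein. Tfpi2 and Crmp1 had at most 1.39 and 1.20 CPM in any library, so their profiles rest on few counts. Among the members, Tie1 was nearest to the mean profile at 0.23 and Eng farthest at 1.08. The closest pair of members was Pecam1 and Esam at 0.46, and the farthest was Emcn and Eng at 1.93. Kdr lay nearer to Eng, at 0.61, than to Cdh5, at 1.21.

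Of the 28 other endothelial genes, 1 was called higher and 1 lower in Lyz2-Cre without LPS, where 11.8% of all tested genes were called. Dll4, a Notch ligand of vessel tips, was higher at 2.63 ± 0.68 (edgeR adjusted p = 0.0262), with 0.902 ± 0.649 CPM in untreated Lyz2-Cre and 0.136 ± 0.110 CPM in untreated Hdac3f/f libraries (SD, n = 3 each). Its untreated Hdac3f/f replicates had 0.260, 0.0973 and 0.0511 CPM, where 3 counts equal 0.130, 0.146 and 0.153 CPM, so this difference rests on few counts. Aqp1, a water channel, was lower at -2.34 ± 0.66 (edgeR adjusted p = 0.0375). Both calls depend on single libraries. The Dll4 call was lost without untreated Lyz2-Cre replicate 2 or 3 or untreated Hdac3f/f replicate 2 or 3, with an adjusted p of up to 0.11 from edgeR. The Aqp1 call was lost without any 1 of the 6 untreated libraries or without Lyz2-Cre LPS replicate 1, with an adjusted p of up to 0.119 from edgeR. The count of genes called higher was 15 of 28 without untreated Hdac3f/f replicate 1, 5 without untreated Lyz2-Cre replicate 1, and 0 without untreated Lyz2-Cre replicate 2, untreated Hdac3f/f replicate 2 or untreated Hdac3f/f replicate 3. The median of the 28 genes was 1.19.

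With LPS, 1 of the 28 was called higher and 4 lower in Lyz2-Cre, where 15.7% of all tested genes were higher and 16.9% lower. Fabp4, a lipid chaperone of adipocytes, macrophages and capillary endothelium, fell by 1.52 ± 0.21 on the log2 scale (edgeR adjusted p = 0.00042), with 48.9 ± 3.61 CPM in Lyz2-Cre LPS and 140 ± 21.0 CPM in Hdac3f/f LPS libraries (SD, n = 3 each). Flt4, the receptor for VEGF-C, was at -2.14 ± 0.41 (edgeR adjusted p = 0.00235), with 3.41 ± 1.80 CPM in Lyz2-Cre LPS and 15.1 ± 5.51 CPM in Hdac3f/f LPS libraries (SD, n = 3 each). Aqp1 had 1 count in all in Lyz2-Cre LPS and 64 in Hdac3f/f LPS libraries (edgeR adjusted p = 0.00109). Per scaled library, Hdac3f/f LPS was 77.8 times Lyz2-Cre LPS, with an exact 95% interval of 13.5 to 3120 for counting error.

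In Lyz2-Cre cells, 2 of 28 rose with LPS and 5 fell, where 25.2% of all tested genes rose and 27.7% fell. Fabp4 fell by 1.53 ± 0.21 (edgeR adjusted p = 4.75e-05). Icam2, an adhesion molecule of endothelium and leukocytes, fell by 1.15 ± 0.20 (edgeR adjusted p = 0.000317). Stab2, a scavenger receptor of sinusoidal endothelium, fell by 2.37 ± 0.41 (edgeR adjusted p = 0.000335), to 1.54 ± 0.263 CPM with LPS, against 8.02 ± 4.39 CPM untreated (SD, n = 3 each). The count that fell was 12 without untreated Lyz2-Cre replicate 1 and 8 without untreated Hdac3f/f replicate 1. The count that rose was 1 without Lyz2-Cre LPS replicate 1, Lyz2-Cre LPS replicate 3 or untreated Lyz2-Cre replicate 3.

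In Hdac3f/f cells, 5 of 28 rose with LPS and 3 fell, where 28.0% of all tested genes rose and 32.1% fell. Flt4 rose by 2.37 ± 0.41 (edgeR adjusted p = 0.000229) and Dll4 by 3.62 ± 0.66 (edgeR adjusted p = 0.000366), while Stab2 fell by 2.46 ± 0.43 (edgeR adjusted p = 0.00024). The Dll4 rise is measured from the same few counts in the untreated Hdac3f/f libraries. Flt4 had 9.59, 15 and 20.6 CPM in Hdac3f/f LPS and 3.99, 2.48 and 2.20 CPM in untreated Hdac3f/f replicates. The count that rose was 9 without untreated Hdac3f/f replicate 1. The LPS responses differed between the genotypes for 2 of 28 genes, Flt4 at -3.37 ± 0.57 (edgeR adjusted p = 0.00434) and Fabp4 at -1.61 ± 0.29 (edgeR adjusted p = 0.00599), where 8.12% of all tested genes did so.

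The ligands and partners through which the members act formed a list of 24 genes, of which 21 were tested. Gdf2, which encodes the endoglin ligand BMP9, had 0 counts in every library. In Lyz2-Cre cells 9 rose with LPS and 6 fell, and in Hdac3f/f cells 9 rose and 5 fell, where 52.9% and 60.1% of all tested genes were called. With library totals alone as scaling, 6 rose and 7 fell in Lyz2-Cre cells, where the calls of Acvrl1, Ctnnd1 and Ctnna1 were lost. In Hdac3f/f cells 3 then rose and 9 fell, the calls of Vegfa, Acvrl1, Tgfb1, Smad1, Ctnna1 and Ptpn11 being lost, with Acvrl1 at -0.14, Tgfb1 at -0.02 and Ctnna1 at -0.07. Vegfc, the ligand of Flt4 and, when processed, of Kdr, rose by 5.37 ± 0.23 in Lyz2-Cre (edgeR adjusted p = 1.45e-09) and by 5.21 ± 0.23 in Hdac3f/f cells (edgeR adjusted p = 1.01e-09). It had 20.7 ± 2.45 CPM in Lyz2-Cre LPS, 0.497 ± 0.161 in untreated Lyz2-Cre, 20.1 ± 2.43 in Hdac3f/f LPS and 0.531 ± 0.142 in untreated Hdac3f/f libraries (SD, n = 3 each).

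The neuropilins, co-receptors that VEGF ligands share with Kdr and Flt4, moved in opposite directions. Nrp1 fell by 2.36 ± 0.12 in Lyz2-Cre (edgeR adjusted p = 7.61e-09) and by 2.69 ± 0.13 in Hdac3f/f cells (edgeR adjusted p = 1.71e-09). Nrp2 rose by 2.16 ± 0.09 in Hdac3f/f cells (edgeR adjusted p = 5.19e-10), with 1470 ± 8.91 CPM in Hdac3f/f LPS and 330 ± 12.1 CPM in untreated Hdac3f/f libraries (SD, n = 3 each). Tgfbr2, the type II receptor for TGF-beta, fell by 1.91 ± 0.09 with LPS in Lyz2-Cre cells (edgeR adjusted p = 3.33e-09), to 64.6 ± 2.64 CPM, against 243 ± 15.1 CPM untreated (SD, n = 3 each).

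Between genotypes without LPS, 1 of the 21 was higher and 2 were lower in Lyz2-Cre, where 5.12% of all tested genes were higher and 6.66% lower. Jup (plakoglobin), a cadherin-binding junction protein, was lower at -1.11 ± 0.18 (edgeR adjusted p = 0.00247), with 12.6 ± 2.96 CPM in untreated Lyz2-Cre and 27.1 ± 3.48 CPM in untreated Hdac3f/f libraries (SD, n = 3 each). Vegfa, the ligand of Kdr, was higher at 1.39 ± 0.31 (edgeR adjusted p = 0.0147). It had 170, 83.5 and 107 CPM in untreated Lyz2-Cre and 68.1, 35.9 and 33.9 CPM in untreated Hdac3f/f replicates. Vegfb, a ligand of Flt1, was lower at -0.66 ± 0.17 (edgeR adjusted p = 0.0294). The Vegfa call was lost without untreated Lyz2-Cre replicate 1 or untreated Hdac3f/f replicate 2 or 3, with an adjusted p of up to 0.0648 from edgeR. The Vegfb call was lost without any 1 of the 3 untreated Lyz2-Cre libraries or untreated Hdac3f/f replicate 2 or 3, with an adjusted p of up to 0.131 from edgeR.

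With LPS, 3 of the 21 were higher and 4 lower in Lyz2-Cre, where 15.7% of all tested genes were higher and 16.9% lower. With library totals alone as scaling, 7 were higher and 1, Ptpn6, lower. The Tgfbr2 call was lost in 14 of 19 alternative settings, the Smad5 call in 7, the Ptpn11 call in 4 and the Nrp1 call in 1. Ptpn6 (SHP-1), a phosphatase of blood cells that acts on receptor tyrosine kinases, was lower at -0.49 ± 0.08 (edgeR adjusted p = 0.00135), with 923 ± 9.87 CPM in Lyz2-Cre LPS and 1290 ± 59.8 CPM in Hdac3f/f LPS libraries (SD, n = 3 each). Nrp2 was lower at -0.43 ± 0.08 (edgeR adjusted p = 0.00286), and library totals alone as scaling gave -0.16 with an adjusted p of 0.155 from edgeR. Jup was lower at -0.81 ± 0.21 (edgeR adjusted p = 0.0119). The Jup call was lost under library totals, without Lyz2-Cre LPS replicate 1 and without Hdac3f/f LPS replicate 2, with an adjusted p of up to 0.0533 from edgeR. The LPS responses differed for 2 of the 21 genes, where 8.12% of all tested genes did so. They were Ptpn6 at -0.67 ± 0.12 (edgeR adjusted p = 0.00541) and Nrp2 at -0.55 ± 0.12 (edgeR adjusted p = 0.0156). The Nrp2 difference was lost in 6 of 18 alternative settings, among them leaving out Lyz2-Cre LPS replicate 1, untreated Lyz2-Cre replicate 2, Hdac3f/f LPS replicate 3 or untreated Hdac3f/f replicate 2, with values between -0.57 and -0.30 and an adjusted p of up to 0.13 from edgeR.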

How the data were processed

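RNA-seq reads of 12 libraries were aligned to mm10, and TopHat2 was used, per the submitters' processing notes. The version, the counting tool and its strand setting are not given in the sources used here. The authors deposited whole-number read counts per gene and FPKM values. The authors' table also holds their normalized group means (signal), log2 fold changes and p-values, which were not used here. The deposited FPKM equal the count divided by gene length and by a library size of 12524047 to 23884972, which differs from the totals of 16553432 to 18706990 counts. Groups came from the sample titles and genotype labels.

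Counts were tested with edgeR 4.0.16 (R 4.3.3): low-count filter by filterByExpr (14286 of 54532 genes), TMM scaling with factors of 0.716 to 1.264, 1 coefficient per group over all 12 libraries, quasi-likelihood tests of 4 comparisons and their interaction, and Benjamini-Hochberg adjusted p under 0.05. CPM use TMM-scaled library sizes. Profiles use log2 CPM with a prior count of 2. FPKM served to rank genes only. Intervals are exact Poisson or exact binomial at 95% and cover counting error. Replicate pairs differed by a chi-square of 8.15 to 45.0 per gene, so none was counted as 1 library. The test scripts were tested on simulated data.

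The members and gene lists (other endothelial, ligands and partners, stromal, megakaryocyte and platelet, blood progenitor, mast cell and basophil, lymphocyte, macrophage) were chosen with earlier results of these data known. Beside the 9 members, Hdac3 and Lyz2, up to 3 called genes of lowest adjusted p per comparison are named from the other endothelial and the ligand and partner lists. Also named are list genes at 0 in all libraries, genes that overlap a member, and the 8 genes nearest to the members' profile. Some further called genes of the 2 lists are named where another setting lost their call. Other calls were also lost. In Lyz2-Cre cells the LPS calls of Ctnnb1 (9 of 19 settings), Nos3 (4 of 17), Selp (4 of 19) and Cav1 (2 of 19) were among them. In Hdac3f/f cells those of Vegfa (7 of 19), Tgfbr1 (4 of 19), S1pr1 (3 of 19) and Selp (2 of 19) were. Between genotypes with LPS, S1pr1 lost its call in 5 of 19 settings and Selp in 4 of 19. Plvap and Vwf were chosen after their values were seen. Promoters are RefSeq's, on GRCm38.p6. Alternatives were DESeq2 1.42.0, its size factors, library totals, other filters, 2 groups alone, a replicate block and leaving out each library.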

Additional observations from a re-analysis of the deposited data

Results flagged for a closer look

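The response to LPS differed between the genotypes for 4 genes of the lists around the endothelial markers. They were 2 of 28 other endothelial genes and 2 of 21 ligands and partners, near the 8.12% of all tested genes that differed. The test was that of the difference itself (edgeR quasi-likelihood interaction with Benjamini-Hochberg adjustment). Flt4 differed by -3.37 ± 0.57 on the log2 scale (edgeR adjusted p = 0.00434), with 3.41 ± 1.80 CPM in Lyz2-Cre LPS, 6.83 ± 1.76 in untreated Lyz2-Cre, 15.1 ± 5.51 in Hdac3f/f LPS and 2.89 ± 0.963 in untreated Hdac3f/f libraries (SD, n = 3 each). Fabp4 differed by -1.61 ± 0.29 (edgeR adjusted p = 0.00599). It had 51.4, 44.8 and 50.5 CPM in Lyz2-Cre LPS, 199, 127 and 99.2 in untreated Lyz2-Cre, 116, 148 and 156 in Hdac3f/f LPS and 117, 134 and 148 in untreated Hdac3f/f replicates. Ptpn6 differed by -0.67 ± 0.12 (edgeR adjusted p = 0.00541) and Nrp2 by -0.55 ± 0.12 (edgeR adjusted p = 0.0156). The Nrp2 call was lost in 6 of 18 alternative settings.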

How the results depend on the processing

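Library totals in place of TMM moved the median of all tested genes to -0.46 (LPS in Lyz2-Cre), -0.72 (LPS in Hdac3f/f), 0.29 (genotypes with LPS) and 0.27 (difference between LPS responses). Genes called higher and lower became 2109 and 6463 for LPS in Lyz2-Cre, 2086 and 8242 for LPS in Hdac3f/f, 4465 and 1329 between genotypes with LPS, and 1134 and 448 for the difference between responses, against 3606 and 3958, 3993 and 4591, 2243 and 2413, and 369 and 791 with TMM. Under library totals the members' median between genotypes with LPS was 0.69, other endothelial genes called higher with LPS in Lyz2-Cre fell to 0, and those called lower in Hdac3f/f became 6. The Emcn difference between responses became 0.06. With no filter on low counts, other endothelial genes called lower were 15 (LPS in Lyz2-Cre) and 5 (LPS in Hdac3f/f), those called higher were 12 (genotypes without LPS) and 3 (with LPS), and 1463 genes in all were lower between genotypes without LPS, against 952; more genes entered that fit. DESeq2 called 5 other endothelial genes higher between genotypes without LPS and 569 genes higher for the difference between responses. A fit of the 2 LPS groups alone called 3 other endothelial genes higher in Lyz2-Cre. The cause was not tested.

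Leaving out each library in turn gave 267 to 1223 genes higher and 461 to 1335 lower between genotypes without LPS, 1262 to 3007 higher and 1536 to 2997 lower with LPS, and 108 to 957 higher and 405 to 1038 lower for the difference between responses. Of the ligands and partners, 0 to 3 were higher and 1 to 4 lower between genotypes without LPS, and 0 to 6 higher and 2 to 6 lower with LPS. Other endothelial genes called higher were 0 to 15 and called lower 0 to 1 between genotypes without LPS, and 0 to 1 were higher with LPS. With LPS, 1 to 3 were higher and 4 to 12 lower in Lyz2-Cre, and 4 to 9 higher in Hdac3f/f. The members' median was 0.83 to 2.29 between genotypes without LPS, -1.01 to -0.66 for LPS in Lyz2-Cre, -0.49 to 1.34 for LPS in Hdac3f/f and -2.27 to -0.50 for the difference between responses. The Tie1 difference between responses became 0.06 without untreated Lyz2-Cre replicate 2, and the Emcn one 0.29 without that library and 0.32 without untreated Hdac3f/f replicate 3. A group left with 2 libraries shares the spread of all groups.

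The main fit did not pair libraries by replicate number. In no comparison did all 3 same-numbered pairs deviate together with a correlation across genes over 0.1, a chosen cut that cannot exclude pairing. The correlations were -0.40, -0.31 and -0.01 (genotypes without LPS), 0.22, -0.08 and 0.20 (genotypes with LPS), 0.13, 0.07 and 0.01 (LPS in Lyz2-Cre) and 0.20, 0.10 and 0 (LPS in Hdac3f/f). With a replicate block, 2 other endothelial genes were called higher between genotypes without LPS, against 1.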
